A study of Mus musculus with 4 samples.

Results

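This report describes 34 genes that make, modify and cross-link interstitial collagen, out of 53379 genes counted in sorted MC38 tumor cells. The genes were taken from a fixed list of symbols: 15 collagen chains, 16 genes for hydroxylation, folding, processing or cross-linking, and 3 small leucine-rich proteoglycans. This list and the other lists used here were chosen with earlier results of these data known. A count set beside the share over all genes is therefore a description, not a test. MC38 cells come from a colon adenocarcinoma of the mouse and carry GFP in this study. Every C57BL/6 mouse received 50000 of these cells under the skin and then a sub-optimal course of an antibody to PD-1, an inhibitory receptor on T cells, at 100 µg on day 12, day 15, day 18 and day 22. Tumors labelled non-responder gave 2 libraries and tumors labelled responder gave 2 libraries. No untreated group was analysed here, so both groups carry the antibody. How response was scored is not in the labels, nor whether a group's 2 libraries are from different mice. Every p-value here therefore measures the spread between libraries alone, and that spread may be technical.

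Fibrillar collagen begins as procollagen chains that are hydroxylated on proline and lysine and folded into a triple helix in the endoplasmic reticulum. After secretion the propeptides are cut off, the molecules pack into fibrils, and lysyl oxidases cross-link them. In solid tumors fibroblasts are usually the main source of this matrix, while tumor cells of mesenchymal character can make it too. Beaded-filament collagen VI, fibril-associated collagens and leucine-rich proteoglycans such as decorin bind to fibrils or shape them.

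Libraries held 18447041 to 21754063 counted reads. Epithelial genes were near 0: Epcam, an epithelial adhesion molecule, had 1 to 3 reads per library, and 7 of 8 epithelial markers stayed under 1 CPM (reads per 1000000) in every library. Fibroblast genes were mixed. Pdgfra, a growth factor receptor of fibroblasts, had 635 and 536 CPM in replicates 1 and 2 of the non-responder group, and 424 and 293 CPM in those of the responder group. In contrast, 6 of 18 fibroblast markers, among them Thy1 and Tagln, stayed under 1 CPM in every library, and Tcf21 had no reads. The 18 markers summed to 2157 and 2427 CPM among non-responders and 1968 and 1653 CPM among responders. Cd34 alone, a surface protein of fibroblasts that endothelial and precursor cells also carry, made up 961 and 1247 CPM and then 1210 and 1078 CPM of these sums. Without it they were 1196 and 1180 CPM against 758 and 575 CPM. In bulk samples, fewer cells of a type and less RNA per cell cannot be told apart.

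The 3 most abundant of the 34 genes were a fibrillar chain, a collagen chaperone and a chain of collagen VI. On a scale corrected for transcript length (transcripts per 1000000, TPM, averaged over the 4 libraries), the level of Col3a1, the only chain of collagen III, was 3190. Serpinh1, which encodes the collagen chaperone HSP47, followed at 1904 TPM and Col6a1 at 1688 TPM. Dcn (decorin), Col6a3, Plod2, Col6a2 and Col5a1 lay between 614 and 722 TPM. By reads, Col3a1 was the first of all genes in non-responder replicate 2 and ranked between 3 and 5 in the other libraries. Both chains of collagen I, the usual main collagen of fibroblast matrix, were far lower, at 102 TPM for Col1a1 and 20.0 TPM for Col1a2. The counted exon length was 6563 bases for Col1a1 and 12426 for Col1a2, and an annotated length beyond the main transcript lowers a TPM.

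At the other end, 3 of the 34 genes had almost no reads and were not tested. P4ha3, a prolyl 4-hydroxylase subunit, had 0 to 2 reads per library. Adamts2, which cuts the amino-terminal propeptide, had 0 to 5 reads, and Fmod (fibromodulin) had 0 to 3. The remaining 31 passed the low-count filter, 30 of them with at least 10 reads in every library, Col14a1 being the exception. The plot of CPM by library shows the levels of these 31 genes.

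**Figure D1:**
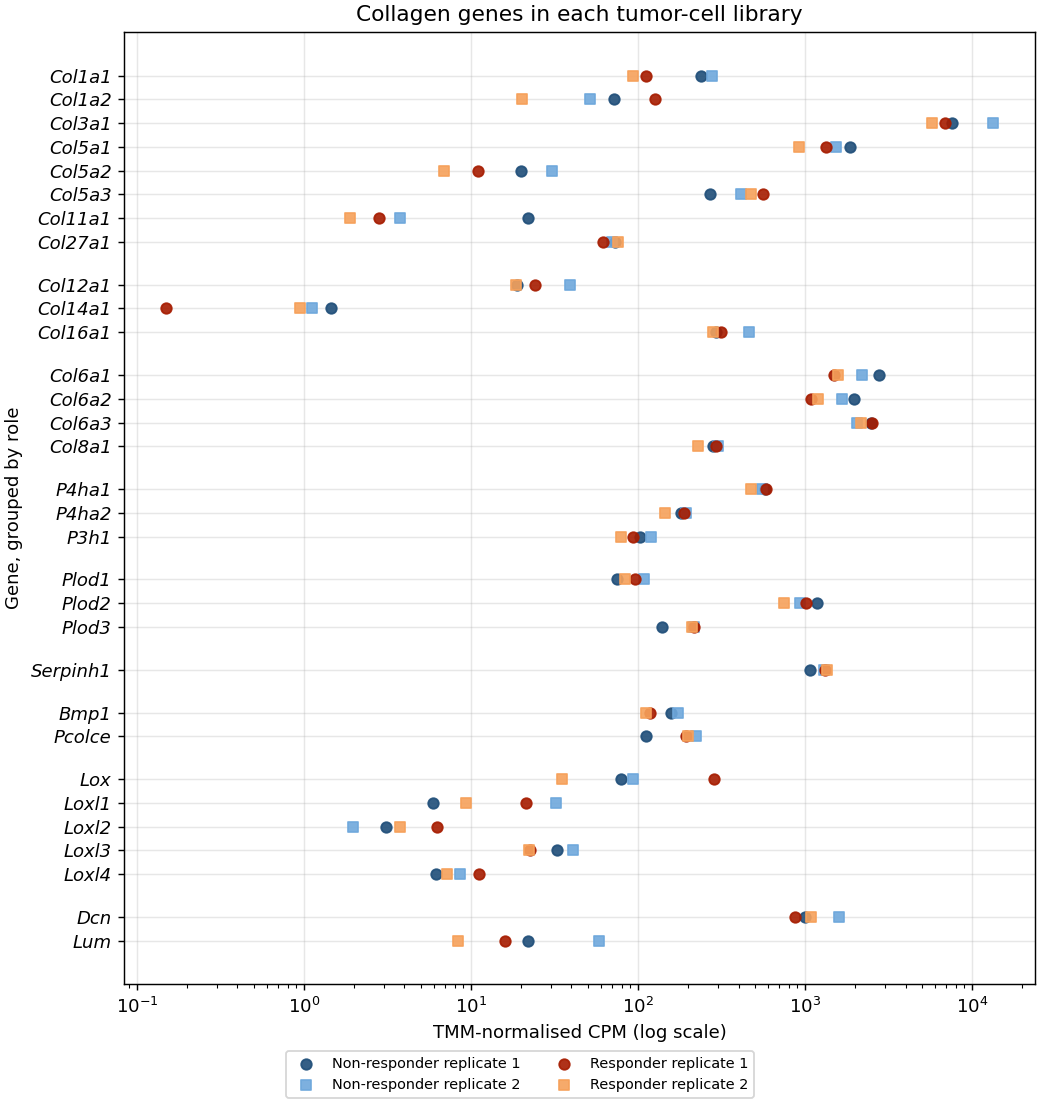
Level of each of the 31 tested collagen genes in each library, in TMM-normalised CPM on a log axis, 1 point per library, with genes grouped by role. Col3a1 lies between 5792 and 13391 CPM, and the widest gaps between libraries of 1 group are those of Col1a2, Lox, Col11a1, Col14a1 and Loxl1.

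The comparison of responder with non-responder libraries asks how these genes differ in the tumor cells of the tumors so labelled. No collagen gene passed edgeR's quasi-likelihood test with Benjamini-Hochberg adjustment over 13792 genes, where 0% of genes passed. The smallest adjusted p among collagen genes was 0.221, for Col1a1. At an unadjusted p under 0.05 in edgeR there were 9 of 31 collagen genes, 7 lower and 2 higher in responder libraries, beside 6.21% of all tested genes (3.63% lower and 2.57% higher). The groups did not overlap for 15 of 31, 12 lower and 3 higher, beside 36.5% of all tested genes (17.7% lower and 18.8% higher). The median log2 fold change over the 31 genes was -0.31, and that over all tested genes was -0.01. DESeq2 called 3 of the 31 genes, Col1a1, Col5a2 and Lum, all lower, beside 0.45% of all tested genes.

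Chains and enzymes differed in their medians. The 15 collagen chains had a median log2 fold change of -0.60, with 12 lower and 3 higher. The 14 tested genes for hydroxylation, folding, processing and cross-linking had a median of -0.07, with 8 lower and 6 higher. The difference between these medians was not tested.

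**Figure D2:**
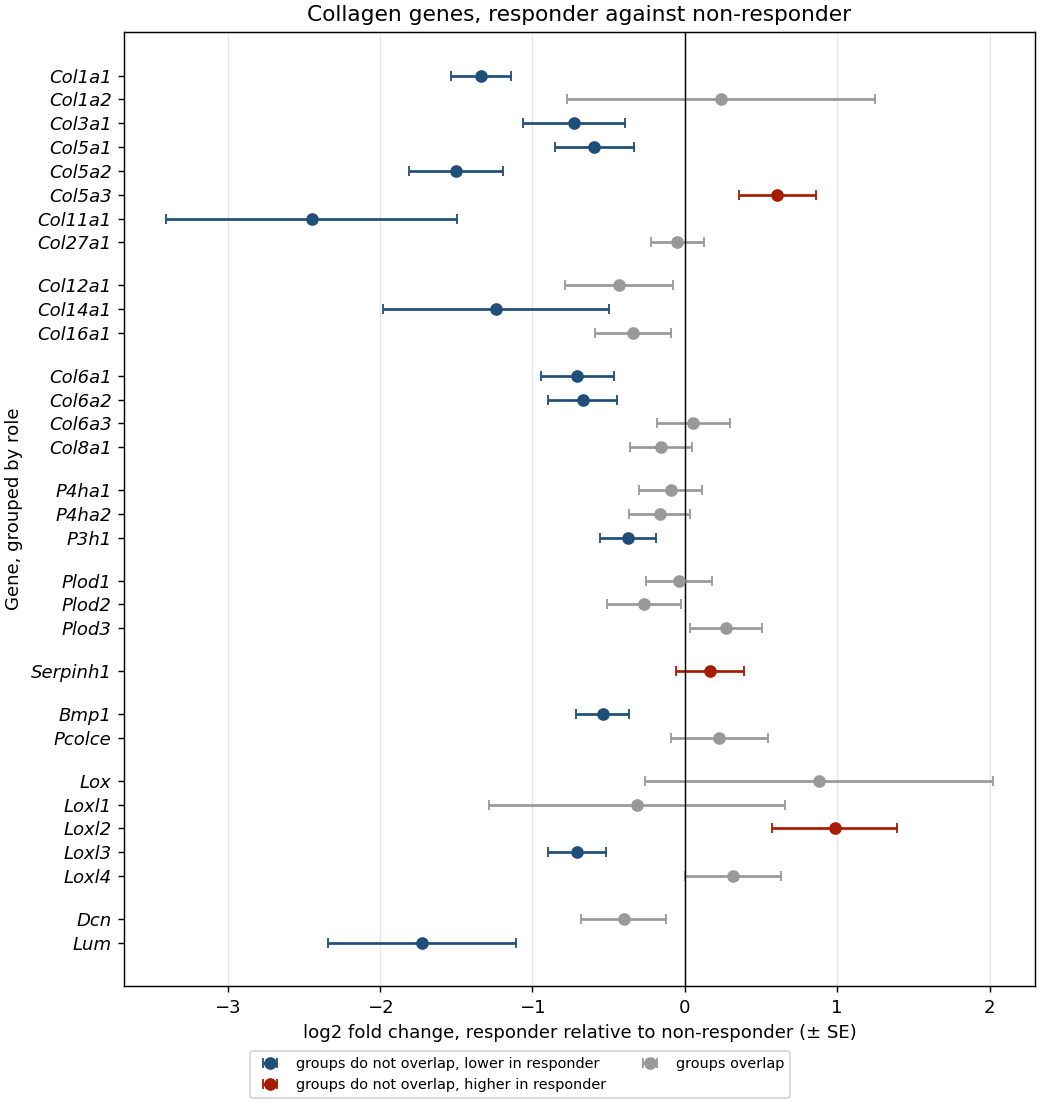
log2 fold change of each tested collagen gene, responder relative to non-responder, with bars of 1 SE from edgeR and genes grouped by role. Most chains lie left of 0, with Col5a3, Col6a3 and Col1a2 to the right, and P3h1 at -0.37 lies farthest from 0 among the hydroxylase genes.

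Among the 31 tested genes, Col1a1 had the smallest p. Col1a1 encodes the α1 chain of collagen I, and in the files it spans chromosome 11 from 94936224 to 94953042 on mm10, counted over its exons (ENSMUSG00000001506). It had 240 and 278 CPM in replicates 1 and 2 of the non-responder group and 112 and 92.8 CPM in those of the responder group. The groups did not overlap, and the level was 2.52-fold lower in responder libraries (log2 fold change -1.34, SE 0.20, unadjusted p = 0.000152 and adjusted p = 0.221 in edgeR, DESeq2 adjusted p = 2.31e-07, range over all alternatives 2.31e-07 to 0.362).

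Its partner Col1a2, the α2 chain of the same molecule, did not follow. Col1a2 had 72.3 and 51.6 CPM among non-responders, then 126 CPM in replicate 1 and 20.3 CPM in replicate 2 of the responder group. The highest and the lowest of the 4 values were both from responder libraries, 6.19-fold apart. The log2 fold change of 0.24 (SE 1.01, adjusted p = 0.981 in edgeR) turned to -1.61 without responder replicate 1, a fit with a single responder library.

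Col3a1 and Col5a2 lie near each other on chromosome 1 and were both lower in responder libraries. Col3a1 (45311538 to 45349706, plus strand) had 7598 and 13391 CPM among non-responders and 6897 and 5792 CPM among responders. The groups did not overlap, but the gap between non-responder replicate 1 and responder replicate 1 was small beside the 1.76-fold gap within the non-responder group (log2 fold change -0.73, SE 0.34, adjusted p = 0.796 in edgeR). Col5a2 (45374321 to 45503282, minus strand), a chain of collagen V, which helps start fibrils, had 20.0 and 30.7 CPM against 11.0 and 6.91 CPM. Both responder libraries were below both non-responder libraries, 2.83-fold on average (log2 fold change -1.50, SE 0.31, adjusted p = 0.423 in edgeR and 0.00949 in DESeq2, range over all alternatives 2.69e-06 to 0.724).

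The 3 chains of collagen V did not share a direction. Col5a1 had 1864 and 1540 CPM among non-responders and 1328 and 925 CPM among responders, 1.51-fold lower (log2 fold change -0.60, SE 0.26). Col5a3 went the other way, with 268 and 411 CPM against 562 and 475 CPM, 1.52-fold higher (log2 fold change 0.61, SE 0.25). In both genes the groups did not overlap, in opposite directions, and neither passed in edgeR (adjusted p = 0.796 and 0.787). The log2 fold change of Col5a3 ran from 0.34 to 0.95 when each library was left out in turn. The value of 0.95 was without non-responder replicate 2, a fit with a single non-responder library.

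Of the other fibrillar chains, Col11a1 was high in a single library. Col11a1, a chain of the cartilage-type collagen XI, had 22.1 CPM in replicate 1 and 3.77 CPM in replicate 2 of the non-responder group, and 2.83 and 1.88 CPM among responders. Its log2 fold change of -2.45 (SE 0.96, adjusted p = 0.796 in edgeR) ranged from -3.22 to -0.67 when each library was left out in turn. The value of -3.22 was without non-responder replicate 2. Col27a1, a fibrillar chain with a shorter helix, stayed in a narrow range, at 72.9 and 70.3 CPM against 62.2 and 76.1 CPM (log2 fold change -0.05, SE 0.17).

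No fibril-associated chain had an unadjusted p under 0.05 in edgeR. Col16a1 had 293 and 460 CPM among non-responders and 313 and 283 CPM among responders, and Col12a1 had 18.8 and 38.9 CPM against 24.1 and 18.7 CPM. In both genes non-responder replicate 2 was above the other libraries, which overlapped, and without it the log2 fold changes turned from -0.34 to 0.021 and from -0.43 to 0.18. Col14a1 had 30 and 25 reads in the non-responder libraries and 3 and 18 reads in the responder libraries, too few to compare closely.

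Collagen VI is a heterotrimer whose chains come from separate genes, and 2 of the 3 measured here were lower in responder libraries. Col6a1 had 2782 and 2201 CPM against 1491 and 1566 CPM, 1.63-fold lower (log2 fold change -0.71, SE 0.24, unadjusted p = 0.0182 and adjusted p = 0.728 in edgeR). Col6a2 had 1960 and 1677 CPM against 1083 and 1202 CPM, 1.59-fold lower (log2 fold change -0.67, SE 0.22, unadjusted p = 0.0177 and adjusted p = 0.728 in edgeR). Groups did not overlap for either chain. Col6a3 overlapped throughout, with 2476 and 2052 CPM against 2528 and 2175 CPM (log2 fold change 0.05, SE 0.24). Col8a1, a short-chain collagen, also overlapped at 283 and 301 CPM against 293 and 230 CPM.

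Col6a1 and Col6a2 lie near each other on chromosome 10 (76708792 to 76726168 and 76595762 to 76623630, both on the minus strand), and Col6a3 lies on chromosome 1 (90765923 to 90843971, minus strand). Sequence before each gene's start is shown because the 2 chains that were lower together share a neighbourhood and the third does not. The part of location in their levels was not tested. The bases come from RefSeq on GRCm38.p6, the build of mm10, all on the minus strand and read 5′ to 3′ toward the start: Col6a1 at chr10:76726169-76726294, Col6a2 at chr10:76623631-76623880 (the outer of 2 starts listed) and Col6a3 at chr1:90843972-90844221. For each gene 250 bases before the RefSeq start were searched. For Col6a1, 124 of them lie inside the gene as counted, whose annotated start is farther out, and only the outer 126 are printed. Capitals mark a match on either strand to the motif CCAAT, to the GC box with its letters GGGCGG, or to the TATA box with its letters TATAAA.
Col6a1: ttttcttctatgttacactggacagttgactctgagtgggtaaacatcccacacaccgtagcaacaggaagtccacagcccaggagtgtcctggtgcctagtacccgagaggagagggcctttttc
Col6a2: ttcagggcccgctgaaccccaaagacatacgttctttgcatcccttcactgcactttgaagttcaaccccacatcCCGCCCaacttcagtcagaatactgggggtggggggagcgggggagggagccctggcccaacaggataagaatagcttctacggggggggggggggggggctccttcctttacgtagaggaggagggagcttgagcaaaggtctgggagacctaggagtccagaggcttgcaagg
Col6a3: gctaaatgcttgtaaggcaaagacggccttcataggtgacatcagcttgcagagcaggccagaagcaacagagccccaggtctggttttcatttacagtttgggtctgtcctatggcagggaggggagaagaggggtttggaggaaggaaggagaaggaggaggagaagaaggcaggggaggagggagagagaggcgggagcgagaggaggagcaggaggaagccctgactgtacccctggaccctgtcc

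The only match in the 250 bases of each gene was 1 GC box in the Col6a2 sequence, on the reverse strand. Over all 32851 RefSeq promoters cut to the same length, 32.7% held a GC box, 33.8% a CCAAT box and 12.4% a TATA box. The 3 searched sequences had 56.0%, 59.2% and 57.2% G and C. Of the 34 genes, 22 had a RefSeq promoter to search. At the first start listed for each, 17 of them held a GC box, 6 a CCAAT box and 2 a TATA box. The shares over all promoters count every listed start, so the measures differ. A match is a description of letters, not a bound site.

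Ratios between partner chains within a library need no scaling between libraries. The TPM ratio of Col6a3 to Col6a1 was 0.326 and 0.341 in the non-responder libraries and 0.621 and 0.509 in the responder libraries. The groups did not overlap, and the ratio was 1.69-fold higher in responder libraries by mean log2 ratio (arithmetic means 0.565 ± 0.0792 against 0.334 ± 0.0110, SD, n = 2 per group; two-sided exact permutation p = 0.333, the smallest that 2 libraries per group allow). The ratio of Col6a1 to Col6a2 stayed in a narrow range, at 2.70 and 2.50 in non-responder and 2.62 and 2.48 in responder libraries. These ratios use annotated exon lengths, so their size depends on which isoforms are expressed, whereas their change between libraries does not depend on the lengths used.

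For collagen I, 1 library stood apart. The TPM ratio of Col1a1 to Col1a2 was 6.29 and 10.2 in non-responder replicates 1 and 2 and 8.65 in responder replicate 2, but 1.69 in responder replicate 1. In that library Col1a2 was high and Col1a1 was not. For collagen V, Col5a1 exceeded Col5a2 in every library by 56.7 to 151 times per length, and the ratio was higher in both responder libraries (136 and 151) than in both non-responder libraries (105 and 56.7).

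**Figure D3:**
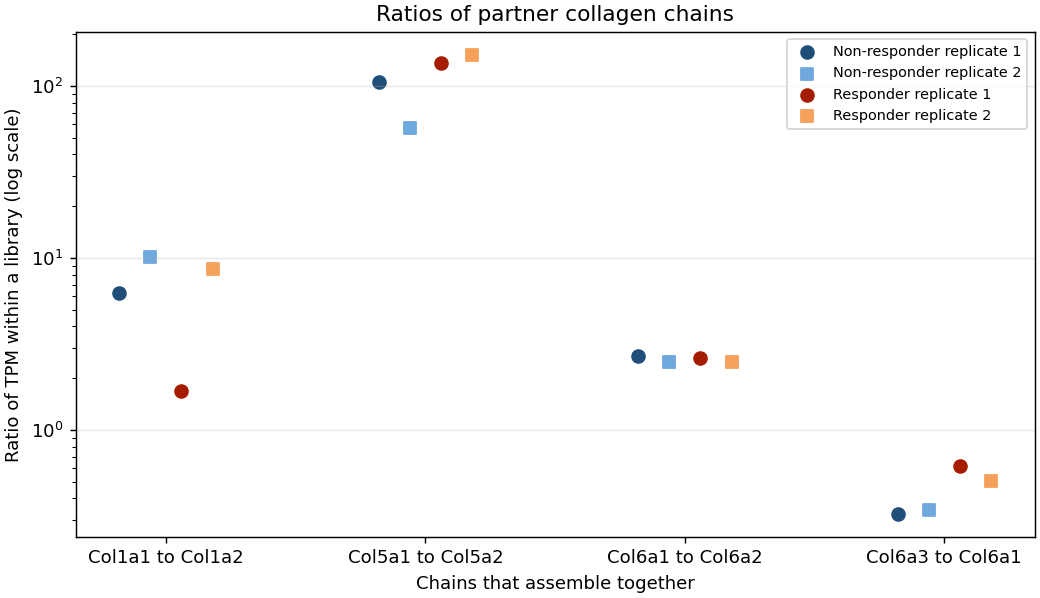
Ratio of length-scaled levels (TPM, log axis) of 4 pairs of chains that assemble together, 1 point per library. The Col6a3 to Col6a1 ratio is 0.621 and 0.509 in responder libraries, above 0.326 and 0.341 in non-responder libraries, and the Col1a1 to Col1a2 ratio of responder replicate 1 (1.69) lies below the others.

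Hydroxylases had small fold changes, none larger than that of P3h1. P4ha1 and P4ha2, catalytic subunits of prolyl 4-hydroxylase, which stabilises the helix, had log2 fold changes of -0.09 (SE 0.21) and -0.16 (SE 0.20). P4ha1 had 578 and 549 CPM among non-responders and 585 and 472 CPM among responders. P3h1, a prolyl 3-hydroxylase, had 102 and 120 CPM against 93.0 and 78.6 CPM, with groups that did not overlap (log2 fold change -0.37, SE 0.18, adjusted p = 0.796 in edgeR). Plod2, the lysyl hydroxylase of the telopeptides, where cross-links form, had 1178 and 936 CPM against 1008 and 751 CPM. Plod1 overlapped, with 75.2 and 109 CPM against 95.7 and 83.7 CPM, and Plod3 had 138 CPM in non-responder replicate 1 and 211 to 216 CPM in the other libraries.

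P4ha1, P4ha2, Plod2 and Lox are known to be induced by low oxygen, and 18 hypoxia-induced genes outside the collagen pathway were counted beside them. Of these, 14 were lower and 4 higher in responder libraries. Their median log2 fold change was -0.24, with 1 at an unadjusted p under 0.05 in edgeR, Pfkfb3 (log2 fold change -0.73, SE 0.20, adjusted p = 0.631). P4ha1, P4ha2, Plod2 and Lox each had their lowest value in responder replicate 2. So did other collagen genes, among them Col1a1, Col3a1, Col5a1, Bmp1 and Lum, whereas Col6a1, Dcn, Plod1 and Serpinh1 did not. How many of all tested genes were lowest there was not counted. The summed level of the 18 genes was also lowest there, at 4151 CPM against 5166 to 5683 CPM in the other libraries. Among the 18, Pgk1, Eno1, Aldoa, Vegfa and Pfkfb4 had their lowest value in another library, and the rest in responder replicate 2. The part of low oxygen in these values was not tested.

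Of the chaperone and the processing genes, only Bmp1 had an unadjusted p under 0.05 in edgeR. Serpinh1 had 1070 and 1306 CPM among non-responders and 1313 and 1350 CPM among responders. Its groups did not overlap, but the gap between them was far smaller than that within the non-responder group (log2 fold change 0.16, SE 0.22). Bmp1, which cuts the carboxy-terminal propeptide, had 159 and 174 CPM against 117 and 111 CPM. Its groups did not overlap, and it was 1.45-fold lower in responder libraries (log2 fold change -0.54, SE 0.17, unadjusted p = 0.0147 and adjusted p = 0.704 in edgeR). Pcolce, the enhancer of Bmp1, had 112 CPM in non-responder replicate 1 and 194 to 224 CPM in the other libraries, and its log2 fold change of 0.23 depended on the non-responder library left out. It was -0.18 without replicate 1 and 0.81 without replicate 2 (adjusted p = 0.933 in edgeR with all libraries).

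Lysyl oxidases, which start the cross-links by oxidising lysine, went several ways. Lox had 79.6 and 93.9 CPM among non-responders, then 285 CPM in replicate 1 and 35.2 CPM in replicate 2 of the responder group. As for Col1a2, the highest and the lowest values were both from responder libraries, here 8.09-fold apart. The log2 fold change was 0.88 (SE 1.14, adjusted p = 0.932 in edgeR). It was -1.30 when responder replicate 1 was left out and 1.72 when replicate 2 of that group was.

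The other family members divided. Loxl3 had 32.7 and 40.7 CPM among non-responders and 22.7 and 22.2 CPM among responders, 1.63-fold lower, with groups that did not overlap (log2 fold change -0.71, SE 0.19, unadjusted p = 0.00594 and adjusted p = 0.631 in edgeR). Loxl2, which was scarce, had 3.09 and 1.97 CPM against 6.25 and 3.77 CPM, 1.98-fold higher (log2 fold change 0.98, SE 0.41, adjusted p = 0.787 in edgeR). Loxl1, best known for elastin cross-linking, had 5.94 and 32.2 CPM against 21.4 and 9.37 CPM, a spread of 5.43-fold within the non-responder group. Loxl4 overlapped, with 6.18 and 8.57 CPM against 11.2 and 7.22 CPM.

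Wide gaps inside a group were found for 7 of the 29 collagen genes with a mean of at least 5 CPM. In the responder group 3 genes were at least 2-fold apart (Col1a2, Lox and Loxl1), beside 1.2% of all tested genes at that level. In the non-responder group 5 genes were (Col11a1, Col12a1, Pcolce, Loxl1 and Lum), beside 3.66%. Col1a2 and Lox shared their order of libraries only in part: responder replicate 1 was highest and responder replicate 2 lowest in both, while the non-responder libraries were in opposite order.

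**Figure D4:**
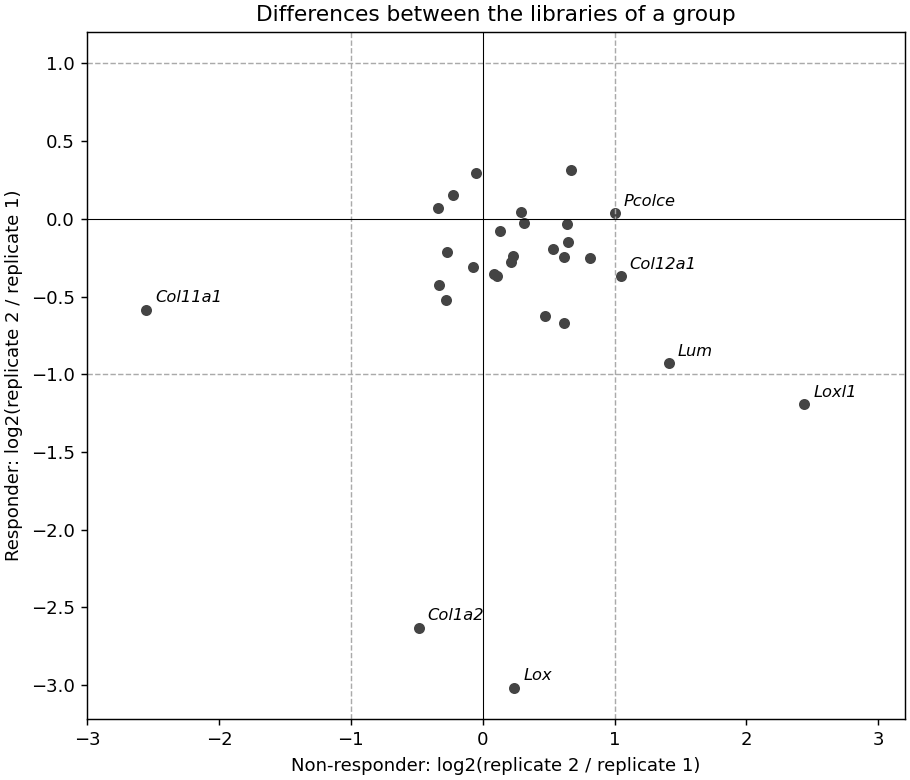
log2 ratio of replicate 2 to replicate 1 in the non-responder group (horizontal) and the responder group (vertical) for the 29 tested collagen genes with a mean of at least 5 CPM, with dashed lines at 2-fold. Lox and Col1a2 lie 8.09-fold and 6.19-fold apart in the responder group only, and Loxl1 is past 2-fold in both groups. Replicate numbers are not taken to pair libraries across groups.

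Leucine-rich proteoglycans were lower on average in responder libraries. Lum (lumican), which binds collagen fibrils, had 22.0 and 58.6 CPM among non-responders and 16.0 and 8.38 CPM among responders. It was 3.31-fold lower with groups that did not overlap (log2 fold change -1.73, SE 0.62, adjusted p = 0.796 in edgeR and 0.0471 in DESeq2). Leaving out non-responder replicate 2 brought the log2 fold change of Lum to -0.86. With responder replicate 1 left out instead it was -2.26. Dcn, which lies near it on chromosome 10 (97479609 to 97518143, with Lum at 97565128 to 97572703, both on the plus strand), had 999 and 1588 CPM against 874 and 1085 CPM, and its groups overlapped. In both genes non-responder replicate 2 was the highest library.

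Other genes of the collagen pathway, 73 in 5 lists, gave no call in edgeR either. Of the 43 that were tested, 31 were lower and 12 higher (median log2 fold change -0.17), 4 lower and 0 higher at an unadjusted p under 0.05 in edgeR, beside 3.63% and 2.57% of all tested genes. DESeq2 called 2, Fkbp14 and Mmp2, beside 0.45%. All 14 tested genes for folding and export were lower, at a median of -0.21. Among them Fkbp14, a prolyl isomerase of the endoplasmic reticulum, had 39.1 and 29.9 CPM among non-responders and 14.9 and 11.4 CPM among responders (log2 fold change -1.39, SE 0.23, adjusted p = 0.292 in edgeR). Among 10 tested other chains 5 were lower and 5 higher, with Col18a1, a basement membrane collagen, at 154 and 164 CPM against 88.7 and 116 CPM. Both tested genes of the other processing list were higher, among them Pcolce2, another procollagen proteinase enhancer, at 18.1 and 25.6 CPM against 26.4 and 36.5 CPM. Of 5 other leucine-rich proteoglycans 4 were lower, with Aspn (asporin) at 108 and 213 CPM against 82.9 and 38.7 CPM. Of 12 receptor and turnover genes 8 were lower, with the gelatinase gene Mmp2 having the smallest p (log2 fold change -0.75, SE 0.20, adjusted p = 0.631 in edgeR).

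Genes used as markers of other cell types went in different directions by list. Whether tumor cells or host cells expressed them was not tested. Of 12 tested fibroblast markers 10 were lower in responder libraries and 2 higher, at a median log2 fold change of -0.70, and 6 lower and 0 higher had an unadjusted p under 0.05 in edgeR, beside 3.63% and 2.57% of all tested genes. DESeq2 called 3 of them, Pdgfrb, Postn and Dpt, all lower, beside 0.45%. Pdgfrb had the smallest p in edgeR, with 220 and 198 CPM against 107 and 78.3 CPM. All 14 tested leukocyte markers were lower, at a median log2 fold change of -1.87, and 0 of them had an unadjusted p under 0.05 in edgeR. Their groups did not overlap for 4 of the 14, beside 17.7% of all tested genes in that direction. The 20 in the list summed to 104 and 306 CPM among non-responders and 6.49 and 103 CPM among responders. Ptprc (CD45) had 5.94 and 22.6 CPM against 0.644 and 6.91 CPM, Xist had 7.82 and 17.0 CPM against 1.39 and 8.58 CPM, and the endothelial gene Pecam1 17.8 and 25.5 CPM against 6.34 and 11.6 CPM. Of the other tested endothelial markers, Cdh5 had 5.51 and 2.15 CPM against 5.95 and 3.51 CPM and Egfl7 1.11 and 1.39 CPM against 1.64 and 2.46 CPM, so that 1 was lower and 2 higher (median log2 fold change 0.31), and 7 of 10 stayed under 1 CPM in every library. Pericyte and smooth muscle markers, 6 of 8 under 1 CPM in every library, were likewise 1 lower and 2 higher (median 0.43). Cspg4 had 65.1 and 110 CPM against 104 and 132 CPM, and its groups overlapped. At an unadjusted p under 0.05 in edgeR, the endothelial and pericyte lists each had 1 lower (Pecam1 and Mcam) and 0 higher. The shares of all tested genes were 3.63% and 2.57%. Non-responder replicate 2 was highest in the leukocyte sum and in 15 of the 31 tested collagen genes, among them Col1a1, Col3a1, Col5a2, Dcn and Lum. Non-responder replicate 1 was highest in 6 of the 31, among them Col5a1, Col6a1 and Col6a2, and in Pdgfra, Pdgfrb and Postn. How many of all tested genes were highest in each library was not counted. The summed fibroblast markers were highest in non-responder replicate 2 with Cd34 and in replicate 1 without it. The part of host cells in the collagen differences was not tested.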

How the data were processed

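RNA-seq was done on sorted tumor cells in 4 libraries, 2 per group, with groups from the sample titles. Poly(A) RNA was made into strand-marking libraries (KAPA mRNA HyperPrep), per the labels' protocols. STAR and mm10 are named in the submitters' processing notes; the STAR version is not given in the sources used here. The deposited values are raw counts per gene, made by the authors with featureCounts 1.6.1, strand setting 2 and Ensembl release 91, per the file headers. No multi-mapping option was set, so reads shared by near-identical copies are not counted. Of 53379 identifiers 53274 matched a symbol, and for repeated symbols the identifier with most reads was used.

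Genes were kept by filterByExpr (minimum count 10) and scaled by TMM (factors 0.952 to 1.04). edgeR 4.0.16 (R 4.3.3) fitted a robust quasi-likelihood model with the group as the only term, adjusted by Benjamini-Hochberg over 13792 genes at 0.05. Each SE was computed as |log2 fold change| / √F. The common biological coefficient of variation was 0.216, which limits the precision. CPM cover all genes and use the TMM factors; Printed fold changes of genes are edgeR's; TPM were computed from counts and exon length. Scripts were tested on simulated data. Alternatives were DESeq2 1.42.0, limma-voom (limma 3.58.1), other factors and filters, no mitochondrially encoded genes, the replicate number as a block, and each library left out.

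The collagen genes and all lists were chosen with earlier results of these data known. All 34 genes are accounted for. From every other list the gene of smallest p was to be named, with Ptprc, Pdgfra, Pecam1, Epcam and Xist; among lists with little signal these were Cd52 (leukocyte, adjusted p = 0.852), Mcam (pericyte, adjusted p = 0.787), Cdh1 (epithelial, adjusted p = 0.984) and Krt14 (skin, muscle and fat, adjusted p = 0.924), all in edgeR. The skin, muscle and fat list had 3 of 9 genes tested, 1 lower and 2 higher. Thy1, Tagln, Tcf21, Cd34, Cdh5, Egfl7, Cspg4, DESeq2's calls and the 3 printed promoters with their motifs and the fibroblast sum without Cd34 were chosen after values were seen. Ero1a was matched by hand to its older symbol. Protein sequences were not analysed here.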

Additional observations from a re-analysis of the deposited data

How the results depend on the processing

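With 2 libraries per group, 1 library can set a value. The count of genes called over all genes, 0 in the main analysis, was 62 with DESeq2, 212 with no filter, 32 with the replicate block and 41 to 516 with a library left out. Limma-voom called 0, as did RLE, upper-quartile and library-size scaling, the filter of 5 CPM and leaving out mitochondrially encoded genes; at an unadjusted p under 0.05, 856 genes passed in edgeR. Collagen genes called, 0 in the main analysis, were 3 with DESeq2, 2 with no filter (Col1a1 and Col5a2), 1 with the replicate block (Col1a1) and 1 to 5 with a library left out. A fit with a library left out sets a single library against 2, so its calls are not read gene by gene. What a shared replicate number stands for is not in the labels. The correlation of same-numbered libraries' deviations was 0.386 over 1 independent pairing, so the block is not read as pairing. A shared batch was not tested. Counts at an unadjusted p under 0.05 with a library left out are not read, since 1 group then holds a single library. Groups did not overlap for 24 of 31 collagen genes when responder replicate 1 was left out, beside 64.9% of all genes. Leaving out replicate 2 of that group gave 23, beside 57.8%. In the non-responder group, dropping replicate 1 gave 24, beside 71.8%. Dropping replicate 2 there gave 21 of 31, a smaller share than the 78.7% over all genes. All these shares are high because a single library overlaps less often. The median log2 fold change of collagen genes stayed below 0, from -0.50 to -0.11. The change of the log2 chain ratio with a library left out ran from -2.24 to 0.11 for Col1a1 to Col1a2, from 0.45 to 1.34 for Col5a1 to Col5a2, from -0.084 to 0.029 for Col6a1 to Col6a2 and from 0.61 to 0.90 for Col6a3 to Col6a1. The log2 fold change of 17 of 31 genes kept its direction wherever the gene was tested, 14 under all 13 alternatives and 3 (Col11a1, Col14a1 and Loxl2) under 12, since the filter of 5 CPM removed them. With a library left out, the others ran from -1.61 to 1.02 (Col1a2), -0.20 to 0.085 (Col27a1), -0.86 to 0.18 (Col12a1), -0.62 to 0.021 (Col16a1), -0.076 to 0.20 (Col6a3), -0.35 to 0.010 (Col8a1), -0.26 to 0.057 (P4ha1), -0.36 to 0.011 (P4ha2), -0.28 to 0.25 (Plod1), -0.011 to 0.63 (Plod3), -0.18 to 0.81 (Pcolce), -1.30 to 1.72 (Lox), -1.06 to 1.37 (Loxl1) and -0.031 to 0.60 (Loxl4). Besides these, Col1a2 turned to -0.27 with limma-voom and -0.24 with the replicate block, and Loxl1 to 0.018 with limma-voom. The causes were not tested.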
